A study of Mus musculus with 12 samples.

Results

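The Cyp3a genes encode cytochrome P450 enzymes of the 3A subfamily, and their RNA was followed in liver of mice fed a diet with or without BIBB-515, an inhibitor of the cholesterol synthesis enzyme lanosterol synthase. The family was taken by gene symbol, as 8 listed genes among the 24062 gene rows of the count tables: Cyp3a11, Cyp3a13, Cyp3a16, Cyp3a25, Cyp3a41a, Cyp3a41b, Cyp3a44 and Cyp3a59. In all, 9 rows had a symbol that starts with Cyp3a, and the row outside the list was Cyp3a57.

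CYP3A enzymes sit in the endoplasmic reticulum of hepatocytes and of intestinal cells, where they oxidize steroids, bile acids and a wide range of drugs with electrons passed on by NADPH-cytochrome P450 reductase. Transcription of several of these genes is known to be raised by the xenobiotic receptors PXR and CAR, which bind pairs of AGTTCA-like half-sites together with the partner RXRA. In mouse liver Cyp3a11 is the best known target of these receptors, whereas Cyp3a16, Cyp3a41 and Cyp3a44 are known for expression that depends on sex, age and growth hormone.

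Female C57BL/6J mice arrived at 6 weeks of age, were acclimated for 2 weeks, and all received the control diet for the last 3 days before the experiment. For the next 10 days, mice assigned at random stayed on this diet or ate the same diet with BIBB-515 added, at a dose of 55 mg per kg of body weight, and the study's methods count 11 mice per diet, its reporting summary 12 with 1 of each diet then left out. RNA-seq libraries of whole liver from 6 control and 6 BIBB-515 mice were analysed, with replicate numbers 1 to 6 and 6 to 11. The labels number the samples within each diet and give no cage or batch, so p-values measure the spread between these samples, and cage and diet cannot be told apart.

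Between 22764819 and 27914647 reads were counted on genes in the control libraries and between 24223939 and 31058370 in the BIBB-515 libraries. Levels are given as CPM after TMM scaling, which adjusts for library depth and composition, and levels of different genes are compared as TPM, which also divides by gene length. Of the 8 genes, 7 had at least 1 CPM in at least 2 libraries and were tested, while Cyp3a41b had 0 counts in every library and was not tested. Tested genes are called past the threshold at an FDR under 0.05 in edgeR's quasi-likelihood test, with Benjamini-Hochberg adjustment over all 12481 tested genes.

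Of the 7 tested Cyp3a genes, 3 rose on BIBB-515 past an FDR of 0.05 (edgeR), namely Cyp3a11, Cyp3a25 and Cyp3a59, and none fell. Over all tested genes, 13.7% were past that threshold, 7.18% higher and 6.48% lower. The same 3 genes had CPM ranges that did not overlap between the diets, which held for 7.07% of all tested genes. Cyp3a13 was close to its control level, and Cyp3a16, Cyp3a41a and Cyp3a44 had lower BIBB-515 means within a spread of more than 10-fold between mice of the same diet.

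Cyp3a11 encodes the major CYP3A enzyme of mouse liver and lies on the minus strand of chromosome 5 from 145854607 to 145879854 (mm10). Its lowest, median and highest levels were 1272, 1563 and 1770.0 CPM in the control mice and 12332, 13921 and 17255 CPM in the BIBB-515 mice. All 6 BIBB-515 mice were far above all 6 control mice, with control 5 and BIBB-515 8 the highest of their diets. The control mean was 1537 ± 166 CPM and the BIBB-515 mean 14544 ± 1897 CPM (SD, n = 6), which is 9.46 times as high. The log2 fold change was 3.24 with a standard error of 0.12 (edgeR's quasi-likelihood test, Benjamini-Hochberg adjusted p = 2.31e-10), and an exact permutation of the diet labels, two-sided, gave p = 0.00216, the smallest possible with 6 mice against 6. In bulk liver RNA, more cells that express a gene and more RNA per cell cannot be told apart, and likewise fewer cells and less RNA per cell.

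Only 11 of the 12481 tested genes had a larger log2 fold change than Cyp3a11, and its p was the second smallest of all. In absolute terms no gene of the tables gained more, since the mean rose by 13007 CPM. By TPM it ranked between 69 and 83 among all genes in each control library and at 5 or 6 in each BIBB-515 library. Each of its 13 exons gave the same picture in the counts per exon, with folds of the mean CPM between 9.10 and 10.7 and no overlap between the diets at any exon.

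Cyp3a25 is a constitutive liver member of the family on the minus strand of chromosome 5, from 145977194 to 146009618. Its lowest, median and highest levels were 418, 461 and 574 CPM in the control mice and 1357, 1445 and 1619 CPM in the BIBB-515 mice. The diets did not overlap, control 1 and 2 were the highest control mice, and BIBB-515 6 and 7 were the highest BIBB-515 mice. The log2 fold change was 1.596 with a standard error of 0.10 (edgeR's quasi-likelihood test, adjusted p = 8.19e-08), with 6 of 6 BIBB-515 mice above every control mouse and an exact permutation p of 0.00216. Over its 14 distinct exon intervals the folds ran from 2.81 to 3.46, again without overlap at any of them.

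Cyp3a59, on the plus strand from 146079258 to 146113283, is the nearest neighbor of Cyp3a25 and runs in the opposite direction. Its lowest, median and highest levels were 29.4, 40.3 and 62.5 CPM in the control mice and 303, 398 and 429.6 CPM in the BIBB-515 mice. The diets did not overlap, and control 1 and 2 were again the highest control mice. Its log2 fold change of 3.14 with a standard error of 0.19 (edgeR's quasi-likelihood test, adjusted p = 8.19e-08) had 6 of 6 BIBB-515 mice above every control mouse and an exact permutation p of 0.00216. Folds over its 13 exons ran from 8.35 to 9.39.

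The ratios between the rising genes within a library showed how unequal their rises were. The count of Cyp3a11 over that of Cyp3a59 had a mean of 37.8 in the control mice and 38.4 in the BIBB-515 mice, with overlapping ranges. The count of Cyp3a11 over that of Cyp3a25 ran from 2.78 to 3.69 in the control mice and from 8.53 to 12.7 in the BIBB-515 mice. The count of Cyp3a25 over that of Cyp3a59 ran from 8.91 to 15.1 in the control mice and from 3.17 to 4.48 in the BIBB-515 mice, so these adjacent genes moved by different factors without overlap of the diets.

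Cyp3a13, the member that lies apart at 137892933 to 137921619, had a lowest, median and highest level of 95.1, 159 and 213 CPM in the control mice and 152, 166 and 208 CPM in the BIBB-515 mice. The BIBB-515 mice lay inside the control range, and 5 of 6 were above the control mean. The log2 fold change was 0.20 with a standard error of 0.18 (edgeR's quasi-likelihood test, adjusted p = 0.482; exact permutation p = 0.260). Although its level hardly moved, Cyp3a13 followed Cyp3a11 closely from mouse to mouse on BIBB-515, where the count of Cyp3a11 over that of Cyp3a13 stayed between 81.1 and 85.03 in all 6 mice. In the control mice the same ratio spread from 7.51 to 14.1.

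**Figure D1:**
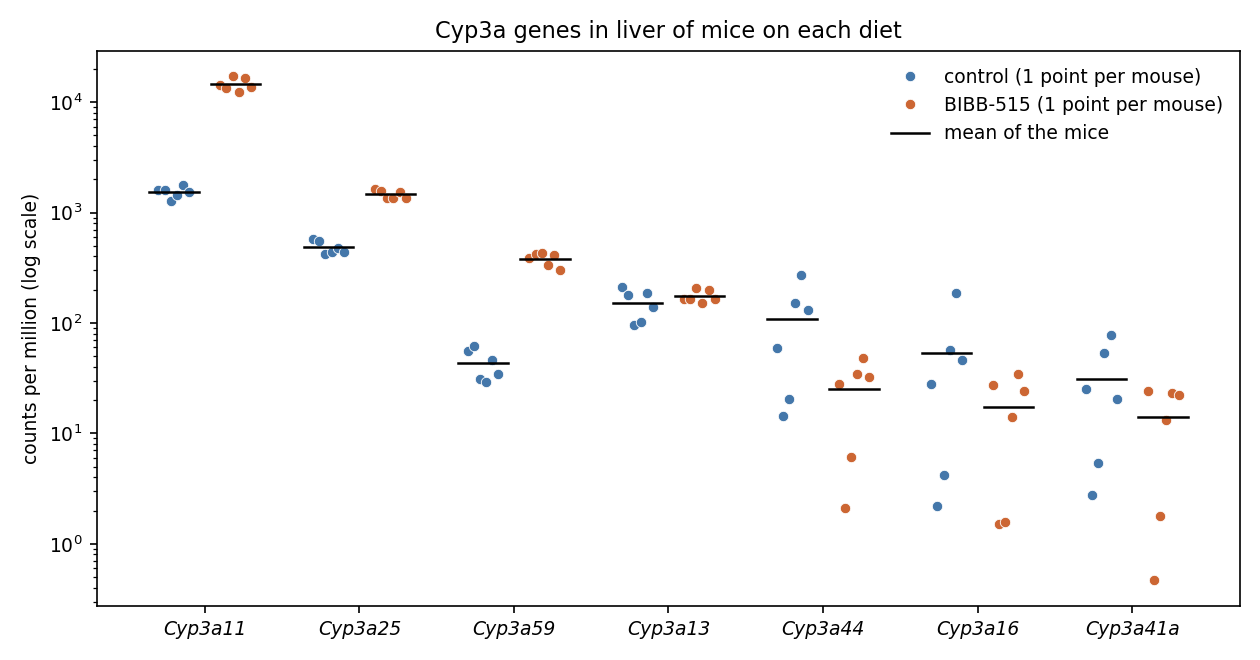
Level of the 7 detected Cyp3a genes in liver, in CPM on a log scale, with 1 point per mouse, control mice in blue, BIBB-515 mice in orange and a black line at the mean of each diet. The diets are apart for Cyp3a11, Cyp3a25 and Cyp3a59, and Cyp3a44, Cyp3a16 and Cyp3a41a spread widely within each diet.

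Cyp3a44, a member known for female-biased expression, lies on the minus strand from 145773983 to 145805874. Its lowest, median and highest levels were 14.3, 95.5 and 270.6 CPM in the control mice and 2.11, 30.2 and 48.6 CPM in the BIBB-515 mice. Control 1, 4, 5 and 6 were above every BIBB-515 mouse and BIBB-515 7 and 8 were below every control mouse, while control 2 and 3 lay among the BIBB-515 values. The log2 fold change was −2.10 with a standard error of 0.73, and it was not past the threshold (edgeR's quasi-likelihood test, adjusted p = 0.0684; exact permutation p = 0.0758), with 6 of 6 BIBB-515 mice below the control mean. Without control 2 it was −2.33 (edgeR adjusted p = 0.0354) and without control 3 it was −2.30 (edgeR adjusted p = 0.0421), while its adjusted p without any other single mouse ran from 0.0733 to 0.146, and under other scalings, filters, tests and count tables from 0.0506 to 0.113.

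Cyp3a16, from 145436309 to 145469723 on the minus strand, is known as a fetal and female-biased member. Its lowest, median and highest levels were 2.21, 36.9 and 186 CPM in the control mice and 1.52, 19.2 and 34.8 CPM in the BIBB-515 mice. Control 5 stood far above all others, control 1, 2 and 3 were among the BIBB-515 values, and BIBB-515 7 and 8 were the lowest of all 12. The log2 fold change was −1.64 with a standard error of 0.89 (edgeR's quasi-likelihood test, adjusted p = 0.236; exact permutation p = 0.366), and without control 5 it was −0.66.

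Cyp3a41a, a female-biased member on the minus strand, had a lowest, median and highest level of 2.79, 22.7 and 77.5 CPM in the control mice and 0.466, 17.6 and 24.1 CPM in the BIBB-515 mice. Again BIBB-515 7 and 8 were the lowest of all and control 5 and 4 the highest, with overlap between. The log2 fold change was −1.12 with a standard error of 0.78 (edgeR's quasi-likelihood test, adjusted p = 0.365; exact permutation p = 0.323), and without control 5 it was −0.59.

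The spread of these 3 genes between mice of the same diet was among the widest of all tested genes. The SD of log2 CPM after removal of the diet means was 2.23 for Cyp3a16, 2.10 for Cyp3a41a and 1.73 for Cyp3a44, which ranked 1, 2 and 5 among 12481 genes, where the median was 0.17. The same SD was 0.17 for Cyp3a11, 0.16 for Cyp3a25, 0.36 for Cyp3a13 and 0.35 for Cyp3a59. The highest control mouse was 84.3 times the lowest for Cyp3a16, 27.8 times for Cyp3a41a and 19.0 times for Cyp3a44, and 1.39 times for Cyp3a11. The mice low for all 3 genes had library totals of 27914647 for control 2, the highest control total, and 22867565 for control 3. On BIBB-515 the totals were 31058370 for BIBB-515 7, the highest of all, and 27631005 for BIBB-515 8. A link with depth was not tested.

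The 3 variable genes went up and down together from mouse to mouse, in a comparison of all 21 pairs of tested members that was chosen after the values were seen. With the diet means removed, the log2 CPM of Cyp3a41a and Cyp3a44 had a Pearson r of 0.97 over the 12 mice and a Spearman rho of 0.87 (permutation p = 1e-05, the smallest the permutations drawn can give, and 0.00049; Benjamini-Hochberg adjusted over 21 pairs, 0.00014 and 0.00343). For Cyp3a16 and Cyp3a44, r was 0.96 and rho 0.90 (permutation p = 2e-05 and 0.00026, adjusted 0.00014 and 0.00273). For Cyp3a16 and Cyp3a41a, r was 0.95 and rho 0.97 (permutation p = 2e-05 and 1e-05, adjusted 0.00014 and 0.00021). Without the 2 mice farthest from the median of the gene named first, these r were 0.93, 0.97 and 0.96, and each was at least 0.94 within either diet alone. None of the 3 followed Cyp3a11, with r between 0.14 and 0.19 (permutation p from 0.555 to 0.662, adjusted from 0.781 to 0.868).

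Among the other pairs, Cyp3a13 went with Cyp3a59 (r = 0.86, rho = 0.80; permutation p = 0.00038 and 0.00302, adjusted 0.00199 and 0.0106). Cyp3a11 went with Cyp3a13 (r = 0.78, rho = 0.84; permutation p = 0.0032 and 0.00087, adjusted 0.0112 and 0.00457). Cyp3a25 went with Cyp3a59 (r = 0.85, rho = 0.80; permutation p = 0.00082 and 0.00268, adjusted 0.00344 and 0.0106). Cyp3a13 and Cyp3a25 had r = 0.68 and rho = 0.69 (permutation p = 0.0154 and 0.0168, adjusted 0.0461 and 0.0504). Without the 2 mice farthest for the gene named first, these r were 0.81, 0.70, 0.71 and 0.42. Within the diets, which were not tested apart, r was 0.90 in the control mice and 0.60 in the BIBB-515 mice for Cyp3a13 with Cyp3a59, and 0.85 and 0.99 for Cyp3a11 with Cyp3a13. For Cyp3a25 with Cyp3a59 it was 0.94 and 0.51, and for Cyp3a13 with Cyp3a25 it was 0.87 and −0.08. The other 14 pairs had adjusted permutation p of at least 0.110 for r and for rho.

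Ordered by TPM in the control mice, Cyp3a11 stood highest at 1413 ± 113 and Cyp3a25 next at 459 ± 68.8 (SD, n = 6). Both were apart from the rest, whose highest value in any control mouse was 242.5 TPM, for Cyp3a44 in control 5. Below them Cyp3a44 (101 ± 87.6 TPM), Cyp3a13 (97.6 ± 30.3), Cyp3a16 (56.4 ± 69.2) and Cyp3a59 (41.1 ± 13.6) followed, and each overlapped its neighbors in this order, while Cyp3a13 was above Cyp3a59 in every control mouse. Cyp3a41a was at 13.7 ± 12.6 TPM with the length of its record in the tables and at 27.4 ± 25.2 TPM with the length of its own gene copy alone. Both lengths include exons with almost no countable read, so its place in this order is not settled. On exon 2, 94 bases long in each gene, control means were 17.4 CPM for Cyp3a41a, 6.01 for Cyp3a44 and 4.54 for Cyp3a16. On BIBB-515 the order was Cyp3a11 at 13702 ± 1795 TPM, Cyp3a25 at 1418 ± 147, Cyp3a59 at 370.04 ± 56.7 and Cyp3a13 at 115 ± 14.3, with no overlap between neighbors in that order. Cyp3a44 (24.8 ± 17.5 TPM), Cyp3a16 (19.2 ± 15.5) and Cyp3a41a (6.60 ± 5.06, with the length of its record) followed and overlapped each other. With the length of its own gene copy alone, Cyp3a41a was at 13.2 ± 10.1 TPM on BIBB-515. On exon 2 the BIBB-515 means were 7.92 CPM for Cyp3a41a, 1.53 for Cyp3a44 and 1.41 for Cyp3a16.

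The 8 genes together took 0.236% ± 0.0326 of all gene counts in the control mice and 1.69% ± 0.201 in the BIBB-515 mice (SD, n = 6), with ranges of 0.185% to 0.284% and 1.45% to 1.95%. Cyp3a11 held 64.2% ± 3.49 of the family counts in the control mice and 87.4% ± 1.34 in the BIBB-515 mice, and 91.5% of the difference in mean family CPM between the diets was its own. The other 7 genes together still went from between 574 and 1248 CPM to between 1905 and 2251 CPM. Family sums and shares are descriptions and were not tested.

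The shares of the other genes shifted in different directions. Cyp3a25 went from 20.4% ± 2.85 of family counts to 8.91% ± 1.17 although its own level rose, and Cyp3a13 went from 6.26% ± 1.44 to 1.06% ± 0.0222. Cyp3a59 held 1.79% ± 0.4995 and 2.30% ± 0.258 of the counts, with overlapping ranges. Cyp3a16, Cyp3a41a and Cyp3a44 together held between 0.799% and 17.7% in single control mice, and between 0.0263% and 0.572% in single BIBB-515 mice.

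**Figure D2:**
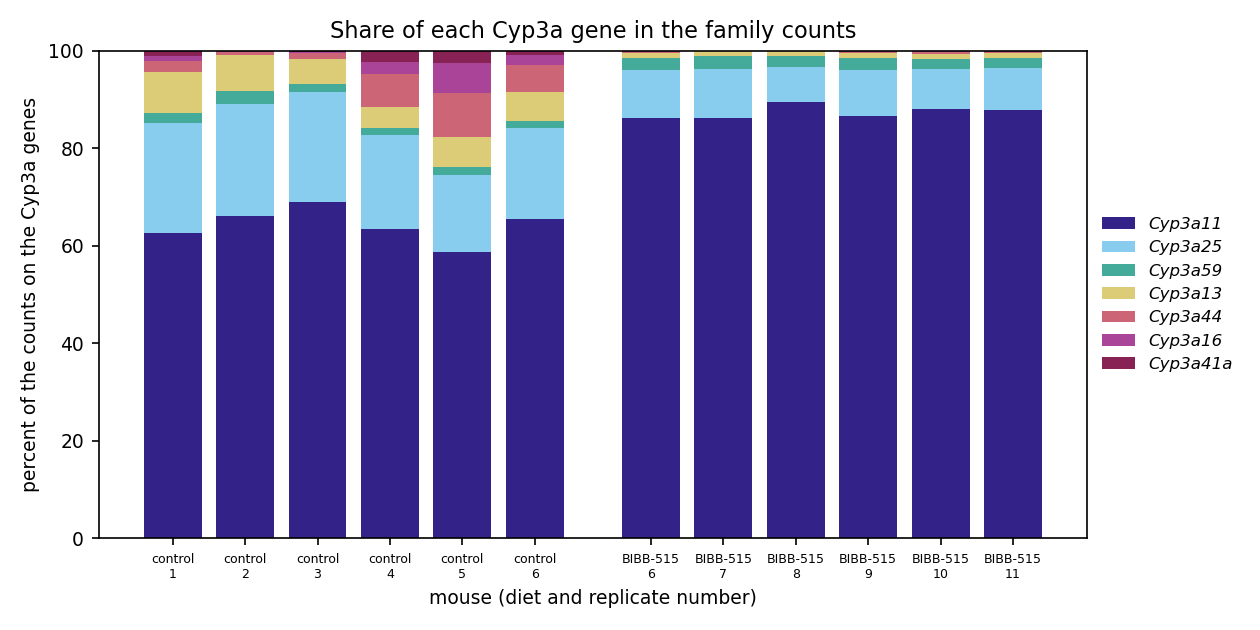
Share of each Cyp3a gene in the counts on the family, in percent, with 1 stacked bar per mouse, 6 control mice on the left and 6 BIBB-515 mice on the right. Cyp3a11 takes 58.7% to 68.9% in the control mice and 86.1% to 89.6% in the BIBB-515 mice, and the 3 genes at the top of the bars are widest in control 5.

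The near-identity of some of these genes bears on what the tables count, because the gene tables leave out reads that map to several places and reads that overlap the exons of more than 1 gene. In the coding sequence, Cyp3a11, Cyp3a16, Cyp3a41a, Cyp3a41b and Cyp3a44 were at least 92.5% identical to each other, and Cyp3a25 and Cyp3a59 were 97.5% identical. Between those groups, and from Cyp3a13 to any other member, identity was at most 77.9%. Of all stretches of 50 bases in the longest coding transcript, none of Cyp3a13, 10.7% of Cyp3a16, 14.8% of Cyp3a11, 26.5% of Cyp3a44, 26.8% of Cyp3a25 and 28.0% of Cyp3a59 were also found in a transcript of another gene. For Cyp3a41a this share was 98.6% and for Cyp3a41b 93.5%. With stretches of 100 bases it was at most 6.05% for the other 6 members, and 90.8% and 88.2% for the Cyp3a41 copies.

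A second set of count tables, in which the authors counted primary alignments and counted a read on overlapping genes for each of them, gave nearly the same values for most members. Over the 12 libraries it added 184 reads to the 2674259 of Cyp3a11, 44 to the 320048 of Cyp3a25, 13 to the 71158 of Cyp3a59 and 1 to the 52201 of Cyp3a13. It added 81 reads to the 10254 of Cyp3a16 and 75 to the 19295 of Cyp3a44, mostly in BIBB-515 mice, and in BIBB-515 7, where both genes had their lowest CPM, these additions came to 30.6% and 25.0% of the count. The log2 fold changes from these tables were 3.25 for Cyp3a11, 1.603 for Cyp3a25, 3.14 for Cyp3a59, 0.21 for Cyp3a13, −1.59 for Cyp3a16, −1.15 for Cyp3a41a and −2.06 for Cyp3a44, with the same 3 genes past an FDR of 0.05 (edgeR). These tables added only 449 reads to Cyp3a41a, although its exons 6 to 13 are identical to those of Cyp3a41b. How many reads that map to several places are missing therefore cannot be read from this agreement.

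Cyp3a41b is the member for which the tables disagreed. The record that the authors' annotation names Cyp3a41a runs from 145558664 to 145720136 and holds 26 exon intervals, and the 13 that lie between 145558664 and 145584730 are the exons of Cyp3a41b. Every read on Cyp3a41b therefore overlapped both records, and the gene tables count it for neither. The primary tables gave Cyp3a41b between 0 and 189 reads per library, 447 in all, and added 449 to the 6667 of Cyp3a41a. On those counts the log2 fold change of Cyp3a41b was −1.72 with a standard error of 0.96 (edgeR's quasi-likelihood test, adjusted p = 0.2495).

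Counts per exon showed where the Cyp3a41 copies can be told apart. In the reference the copies differ by 6 bases, all in exons 1, 2 and 5. Exon 1 has 158 bases in Cyp3a41a and 162 in Cyp3a41b, so its 4 differences are bases absent from Cyp3a41a. Exons 2 and 5 differ at 1 base each, and exons 6 to 13 hold 1541 bases without a difference. The exon tables, which count a read on each exon that it overlaps, gave 12177 counts on exons 1 to 5 at the Cyp3a41a position and 121 on its exons 6 to 13. At the Cyp3a41b position they gave 604 and 142. Exons 3 and 4, which hold no difference themselves but lie between exons that do, also had counts. Cyp3a44, which is 95.8% identical to Cyp3a41a in its coding sequence but does not overlap another record, had counts on all 13 exons, with folds between 0.223 and 0.279. The level of Cyp3a41a thus rests on the first exons of the gene, and its value per length is understated by the exons that hold almost no countable read.

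**Figure D3:**
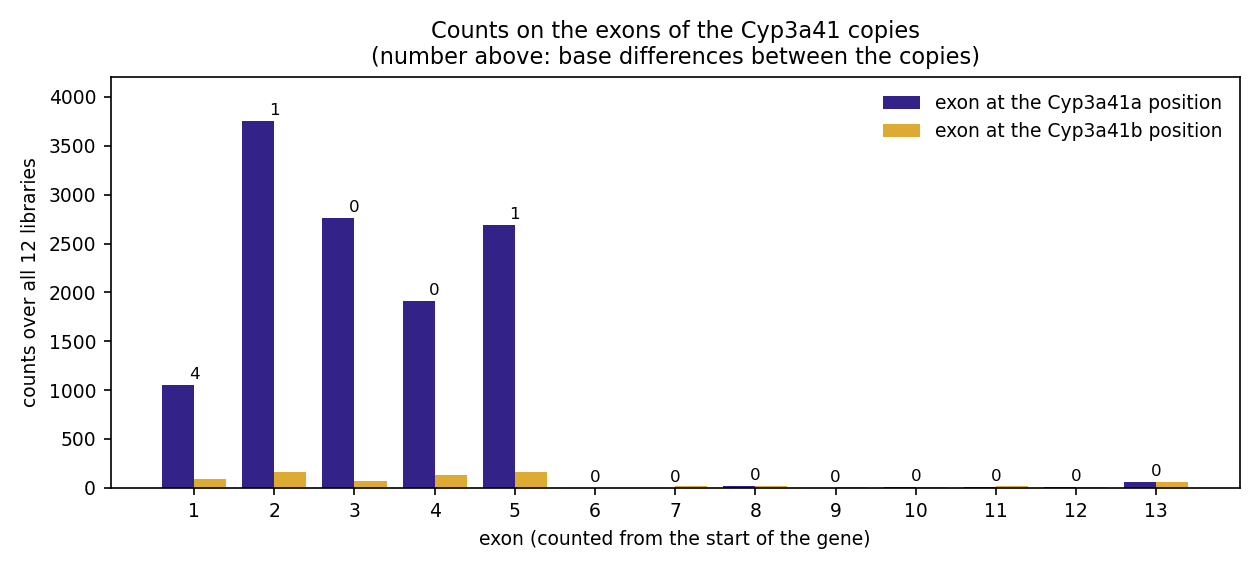
Counts summed over the 12 libraries on each of the 13 exons at the Cyp3a41a position (dark blue) and at the Cyp3a41b position (yellow), with the number of base differences between the copies above each pair. At the Cyp3a41a position, counts after exon 5 are few beside those of exons 1 to 5. At the Cyp3a41b position, counts are low throughout, with 604 on exons 1 to 5 and 142 on exons 6 to 13. Exons 6 to 13 have 0 differences.

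Apart from Cyp3a13, which lies 7.42 Mb away, the Cyp3a genes form a cluster of 768 kb on chromosome 5 between 145345270 and 146113283, with 8 Cyp3a rows and 0 rows of other genes inside. The nearest genes on the low side, Zkscan5, Zfp655 and Zscan25, had log2 fold changes of −0.05, −0.14 and 0.05, and Rnf6 and Cdk8 on the other side −0.14 and 0.04. None of the 5 was past the threshold, with edgeR adjusted p from 0.173 to 0.828, and 1700001J03Rik was below the filter. Within the cluster the rising genes Cyp3a11, Cyp3a25 and Cyp3a59 were adjacent at the high-coordinate end, and Cyp3a16, Cyp3a41a and Cyp3a44 lay on the low-coordinate side of them.

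**Figure D4:**
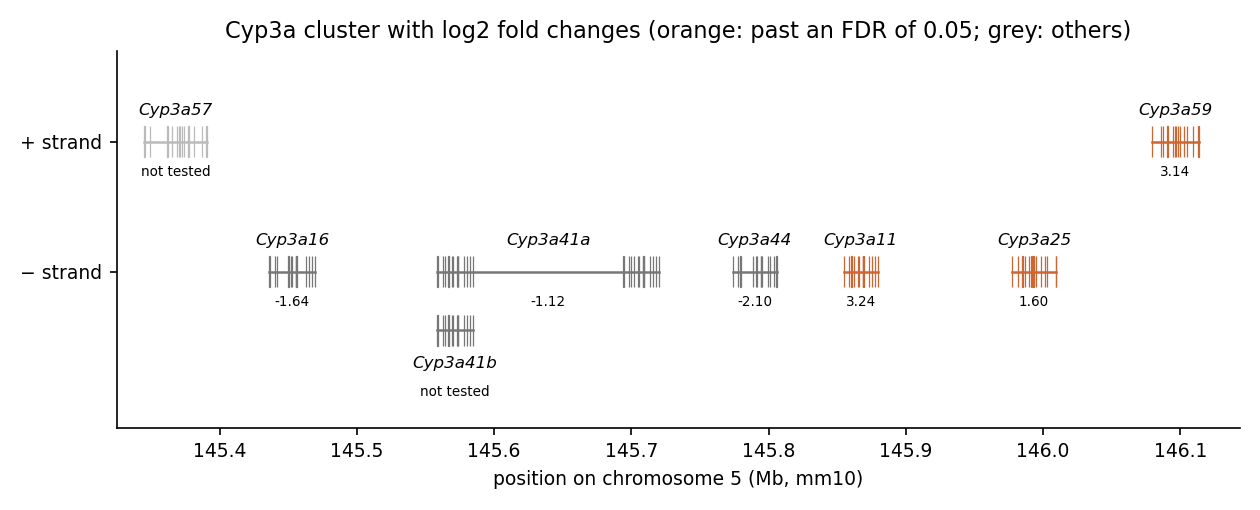
Map of the Cyp3a cluster on chromosome 5 (mm10, position in Mb), with exons as vertical bars, the strand on the vertical axis and the log2 fold change on BIBB-515 under each gene. Genes past an FDR of 0.05 (edgeR) are orange and lie next to each other between 145854607 and 146113283, and the exons of Cyp3a41b repeat those of the first part of the Cyp3a41a record.

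In the promoters, Cyp3a11 stood farther from its nearest relatives than in the coding sequence. All 8 members had an entry in the RefSeq promoter table (GRCm38.p6), and the 250 bases before the start were compared. Promoters of Cyp3a16, Cyp3a41a, Cyp3a41b and Cyp3a44 were at least 91.4% identical to each other and that of Cyp3a11 was between 73.1% and 77.1% identical to them, although their coding sequences are nearly the same. Cyp3a25 and Cyp3a59 had promoters 94.8% identical, and these were at most 58.4% identical to that of Cyp3a11, the other gene that rose. Cyp3a25 and Cyp3a59, alike in coding sequence and promoter, rose by unequal factors.

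The half-sites AGTTCA and AGGTCA, of the kind bound by PXR and CAR, were searched on both strands of these 250 bases. Cyp3a11 had AGGTCA at 157 to 162 bases before the start, and AGTTCA on the other strand at 137 to 142. Cyp3a25 and Cyp3a59 each had AGGTCA 2 times, once on each strand, at 171 to 176 and 150 to 155 bases before the start in Cyp3a25 and 1 base farther in Cyp3a59. Cyp3a44, Cyp3a41a and Cyp3a41b had 1 half-site each, and Cyp3a16 and Cyp3a13 had 0. Among all 32851 promoters of that length, 24.2% had at least 1 such half-site and 3.70% at least 2, and Cyp3a57, which was near 0 in liver, also had 2. A direct repeat with 3 or 4 bases between, or an everted repeat with 6 between, was found in none of the members and in 0.0122%, 0.0244% and 0.00913% of all promoters. Such a match describes letters only. The sequences of the 3 genes that rose and of Cyp3a44, whose coding sequence is 94.9% identical to that of Cyp3a11, are given 5′ to 3′ in the direction of the gene, with the half-sites on either strand in capitals.
Cyp3a11, chr5:145879855-145880104, minus strand: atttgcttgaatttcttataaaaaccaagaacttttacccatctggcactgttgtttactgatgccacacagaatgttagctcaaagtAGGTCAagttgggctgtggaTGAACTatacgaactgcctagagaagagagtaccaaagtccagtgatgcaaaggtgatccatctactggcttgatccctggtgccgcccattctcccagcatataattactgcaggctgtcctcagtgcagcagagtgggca
Cyp3a25, chr5:146009619-146009868, minus strand: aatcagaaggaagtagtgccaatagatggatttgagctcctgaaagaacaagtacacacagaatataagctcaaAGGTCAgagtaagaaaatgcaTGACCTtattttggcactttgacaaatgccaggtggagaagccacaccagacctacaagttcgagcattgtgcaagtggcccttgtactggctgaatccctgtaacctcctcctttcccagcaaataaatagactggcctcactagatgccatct
Cyp3a59, chr5:146079008-146079257, plus strand: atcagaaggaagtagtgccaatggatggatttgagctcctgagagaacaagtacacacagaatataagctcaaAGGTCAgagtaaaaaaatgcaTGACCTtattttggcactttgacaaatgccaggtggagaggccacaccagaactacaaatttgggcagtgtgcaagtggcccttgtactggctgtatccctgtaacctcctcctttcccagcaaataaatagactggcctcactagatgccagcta
Cyp3a44, chr5:145805875-145806124, minus strand: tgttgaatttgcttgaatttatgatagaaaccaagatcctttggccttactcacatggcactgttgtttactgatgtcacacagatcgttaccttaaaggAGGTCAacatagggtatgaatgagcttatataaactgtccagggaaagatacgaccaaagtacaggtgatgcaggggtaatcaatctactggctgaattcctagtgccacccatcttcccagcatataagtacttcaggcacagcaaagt

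Of 12 tested genes for CAR, PXR and their partners, 1 rose and 1 fell past an FDR of 0.05 (edgeR), against 7.18% and 6.48% of all tested genes, and the median log2 fold change was −0.08 against −0.01 over all tested genes. Cebpb, a liver transcription factor gene, rose from 48.2 to 73.2 CPM in the mean, with a log2 fold change of 0.60 and a standard error of 0.15 (edgeR adjusted p = 0.0180, 6 of 6 mice above the control mean). With single mice left out, the number past the threshold in this list was 1 in 5 of 12 cases.

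The receptor genes themselves were not past the threshold, and neither was Cebpa, a transcription factor gene. Nr1i3, which encodes CAR, had a log2 fold change of 0.02 (edgeR adjusted p = 0.929), Rxra 0.07 (0.724), Hnf4a −0.15 (0.368) and Cebpa −0.10 (0.632). Nr1i2, which encodes PXR and is named outside the rule because of that role, was at 95.0 to 147.6 CPM in the control mice and 122 to 156 CPM in the BIBB-515 mice, with a log2 fold change of 0.29 and a standard error of 0.10 (edgeR adjusted p = 0.0658).

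Genes that supply electrons and heme to P450 enzymes rose in part, 3 of 13 tested, with 0 lower, against 7.18% and 6.48% of all tested genes, and a median log2 fold change of 0.12. Por, the reductase that passes electrons to every microsomal P450, was at 396 to 754 CPM in the control mice and 848 to 1003 CPM in the BIBB-515 mice (log2 fold change 0.79, standard error 0.14, edgeR adjusted p = 0.00265). Pgrmc1, a heme-binding partner of P450 enzymes, rose by 0.73 (edgeR adjusted p = 5.09e-05), and like Por it had no overlap between the diets. Alas1, the rate-limiting enzyme of heme synthesis, spread from 191 to 856 CPM in the control mice and from 403 to 952 CPM in the BIBB-515 mice, with a log2 fold change of 0.35 and a standard error of 0.28 (edgeR adjusted p = 0.435). Cyb5r3, Cyb5b and Alad had log2 fold changes of 0.12, 0.20 and 0.14 and were not past the threshold (edgeR adjusted p = 0.611, 0.128 and 0.360).

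Known targets of CAR and PXR outside the family rose widely, 16 of 19 tested with 0 lower, against 7.18% higher and 6.48% lower of all tested genes, and a median log2 fold change of 1.53. The list genes were chosen with earlier results of these data known, so this count is only a description. The 4 with the lowest p were Ces2a, a carboxylesterase (log2 fold change 3.53, standard error 0.12), Cyp2c55 (5.98, 0.26), Aldh1a1, a retinaldehyde dehydrogenase (2.25, 0.10), and Akr1b7, an aldo-keto reductase (3.26, 0.18), each with 6 of 6 BIBB-515 mice above every control mouse and edgeR adjusted p from 2.07e-10 to 3.96e-08. Log2 fold changes in this list ran from 0.17 for Gstt1 to 5.98 for Cyp2c55. The members that rose had 3.24 for Cyp3a11, 3.14 for Cyp3a59 and 1.596 for Cyp3a25. So wide a span does not set them apart from other rising genes.

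The genes most like Cyp3a11 were found by the root mean square difference over the 12 libraries between log2 CPM values set to each gene's control mean, among 11102 genes with a mean log2 CPM of at least 1. Outside the family they were Ces2a at 0.28, Akr1b7 at 0.42, Gadd45b at 0.42, 9130409I23Rik at 0.44 and Gsta2 at 0.60. Their log2 fold changes ran from 2.99 to 3.53, near that of Cyp3a11. This distance does not separate a like fold change from variation shared between mice. Within the family, Cyp3a59 was at 0.27, nearer to Cyp3a11 than any of those 5.

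Genes with a known sex bias in liver moved in both directions. Of 12 tested female-biased genes outside the family, 2 were higher and 4 lower past the threshold, with a median log2 fold change of −0.56, and of 7 tested male-biased genes 3 were higher and 2 lower, with a median of 0.58, against 7.18% higher and 6.48% lower of all tested genes. Among the female-biased genes, A1bg (−3.37, standard error 0.71), Cux2, a transcription factor (−2.08, 0.46), and Prlr, the prolactin receptor (−0.68, 0.15), fell and Sult2a2, a sulfotransferase (1.602, 0.37), rose, with edgeR adjusted p from 0.00669 to 0.0106. The control mean of A1bg, 244.8 CPM, includes control 5 at 828 CPM, with the next control mouse at 309.8 CPM. Among the male-biased genes, Slco1a1, a transporter, fell (−1.67, 0.26), and Mup20 (0.91, 0.17), Cyp7b1 (0.63, 0.12) and Cyp2d9 (0.67, 0.16) rose, with edgeR adjusted p from 0.000971 to 0.0150.

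Female-biased genes varied between mice in different ways beside Cyp3a44, with r above 0 for 8 and below 0 for 4 of the 12 genes, from −0.67 to 0.77. Of 19 tested sex-biased genes compared with Cyp3a44 after removal of the diet means, a comparison chosen after the values were seen, A1bg had r = 0.77 and rho = 0.81 over the 12 mice (permutation p = 0.00206 and 0.00205, adjusted 0.0354 and 0.0195), and r = 0.89 without the 2 farthest mice. Hao2, a peroxisomal oxidase, had r = 0.76 and rho = 0.62 (permutation p = 0.00373 and 0.0334, adjusted 0.0354 and 0.121), and r = 0.67 without the 2 farthest mice. Cyp2a4, a steroid hydroxylase, had r = 0.59 and rho = 0.84 (permutation p = 0.0412 and 0.00119, adjusted 0.112 and 0.0195), and r = 0.46 without the 2 farthest mice. Hao2 and Cyp2a4 lie outside the naming rule and are given because of these values. Cux2 had r = −0.05 and rho = 0.07 (permutation p = 0.880 and 0.834, adjusted 0.880 and 0.881), and r = −0.49 without the 2 farthest mice. The summed level of the 12 female-biased genes was lowest in control 2 and 3, at 2491 and 2506 CPM against 2828 to 3896 CPM in the other control mice, and lowest in BIBB-515 7 and 8, at 1747 and 2342 CPM against 2609.6 to 3099 CPM in the other BIBB-515 mice. This sum does not weigh the 12 genes equally, since Cyp2a4 led it with means of 1213 CPM in the control and 940 CPM in the BIBB-515 mice. The summed level of the male-biased genes was also lowest in control 2 and 3, at 217.7 and 199.9 CPM against 306 to 412 CPM in the other control mice, but highest in BIBB-515 7 and 8, at 389.7 and 380.3 CPM against 223 to 348 CPM. These are the mice that were low for Cyp3a16, Cyp3a41a and Cyp3a44, and a link between them was not tested.

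The tissue label fitted the markers. Hepatocyte genes led, with Alb the most abundant at a mean of 120094 CPM in the control mice and 90923 CPM in the BIBB-515 mice. Of 7 tested hepatocyte markers 0 were higher and 2 lower past the threshold, against 7.18% and 6.48% of all tested genes, namely Alb (−0.40, edgeR adjusted p = 0.0129) and Ttr (−0.49, edgeR adjusted p = 0.00391), and their summed level ran from 139083 to 157540.0 CPM in the control mice and from 104726 to 119653 CPM in the BIBB-515 mice. The part of this fall in the CPM of other genes was not tested.

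Of 5 tested markers each, cholangiocyte, leukocyte and endothelial lists had 0 past the threshold in either direction, with summed levels of 62.6 to 115.7, 207 to 292 and 161 to 217 CPM in the control mice and 91.9 to 154, 201 to 303 and 147 to 199 CPM in the BIBB-515 mice. Their most abundant genes were Spp1, Clec4f and Stab2. Of 5 stellate cell markers 2 were lower, against 6.48% of all tested genes, namely Lrat (−0.81, edgeR adjusted p = 0.0202) and Dcn (−0.27, edgeR adjusted p = 0.0398), with Dcn the most abundant and sums of 260.2 to 355 CPM in the control mice and 247 to 305 CPM in the BIBB-515 mice.

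Markers of tissues next to the liver were near 0 or known from liver as well. For fat cells 1 of 5 markers, Fabp4, was above the filter, at log2 fold change 0.09, and Lep had 0 counts in all libraries. For intestinal epithelium, which also expresses Cyp3a genes, 1 of 5 was tested, Fabp2, which liver expresses too (−0.66, edgeR adjusted p = 0.0114), and Cdx2 and Sis had 0 counts in all libraries. For pancreas 1 of 4 was tested, Cela1 (−0.56, edgeR adjusted p = 0.0365), and Pnlip had 0 counts in all libraries. Summed levels of these lists ran from 6.82 to 11.3, 65.2 to 142 and 10.1 to 21.8 CPM in the control mice and from 6.92 to 11.6, 61.3 to 83.5 and 9.13 to 10.1 CPM in the BIBB-515 mice.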

How the data were processed

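Gene counts were deposited by the authors as featureCounts tables of the 12 liver libraries (featureCounts 1.6.3 on STAR 2.5.3a alignments to mm10, per the processing notes), and the counts of column 7 were used as given. The filter of 1 CPM in 2 or more libraries kept 12481 of 24062 genes, which were tested in R 4.3.3 with edgeR 4.0.16 (TMM scaling, quasi-likelihood test) and Benjamini-Hochberg adjustment over all tested genes. The exact permutation test used all labelings of the 12 mice and its p was not adjusted. Log2 fold changes are BIBB-515 over control.

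As alternatives, DESeq2 1.42.0, limma-voom (limma 3.58.1), upper-quartile scaling, library size alone, no filter, at least 1 CPM in at least 6 libraries, the primary alignment tables and the removal of each library in turn were tried. No 2 libraries of a diet were treated as repeat deposits, since the lowest chi-square per degree of freedom was 12.1 over 30 pairs. Tables of transcripts were not used here.

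Named genes were all 8 members, the regulator and electron transfer genes past the threshold plus up to 4 others of each by mean CPM, the 4 lowest p of each other list, the neighbors of the cluster and the 5 genes most like Cyp3a11. Of the cell type markers, those past the threshold, the most abundant, the only tested gene of a list and those at 0 counts were named. A few genes that this rule covers are not reported here. Members and lists were chosen with earlier results of these data known. Permutation p of correlations were adjusted over 21 pairs or 19 genes. Coding sequences came from GENCODE M21 and promoters from RefSeq (GRCm38.p6), and identities were computed with edlib 1.3.9 in Python 3.11.15.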

Additional observations from a re-analysis of the deposited data

Results flagged for a closer look

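In 6 of the 166 groups of 6 values examined, 1 mouse lay far from the others of its diet, against 8.3 expected by chance. The number given is the gap to the nearest mouse divided by the range of the diet. Among the members this was so for Cyp3a16 in control 5, the highest control mouse at 186 CPM with the next at 56.96 CPM (0.702). Of the other genes, in the control diet it was control 2 for Nr1i2, highest at 147.6 CPM with the next at 114 CPM (0.636), and control 5 for A1bg, highest at 828 CPM with the next at 309.8 CPM (0.645). Among BIBB-515 mice it was mouse 9 for Gsta2, lowest at 14.7 CPM with the next at 21.6 CPM (0.696), and mouse 11 for Gstt1, highest at 455 CPM with the next at 418 CPM (0.64). For Abcb1a it was mouse 8, highest at 22.5 CPM with the next at 18.8 CPM (0.715).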

How the results depend on the processing

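Of the values under alternatives, 254 stayed close: fold changes kept direction and side of the threshold, counts of genes stayed within 1.5 times and shares within 1 SD. Of the rest, 2 were stronger, 5 moved and 0 reversed. Over the 12 fits that each left out 1 library, Cyp3a44 had log2 fold changes from −2.39 to −1.57, and it passed the threshold without control 2 (−2.33, edgeR adjusted p = 0.0354) and without control 3 (−2.30, edgeR adjusted p = 0.0421); the cause was not tested. The number of regulators past the threshold, 2, ran from 1 to 3, with 1 without control 1, 3 or 5 or BIBB-515 6 or 8; the cause was not tested. Leave-one-out ranges were 3.19 to 3.29 for Cyp3a11, 1.56 to 1.65 for Cyp3a25, 3.06 to 3.27 for Cyp3a59, 0.10 to 0.32 for Cyp3a13, −1.97 to −0.66 for Cyp3a16 and −1.36 to −0.59 for Cyp3a41a. Genes past the threshold ran from 1199 to 1865 in these fits, and from 1489 (no filter) to 2244 (DESeq2) under the other alternatives, against 1705. Cyp3a41b had a value only from the primary alignment tables. No paired analysis was possible because the groups share only replicate number 6. Cyp3a41a and Cyp3a41b are limited by their identical exons, and Cyp3a16, Cyp3a41a and Cyp3a44 by the spread between 6 mice per diet.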

Other observations

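Cyp3a57, the Cyp3a row outside the listed members, lies at the low-coordinate end of the cluster and had 38 counts over the 12 libraries, at most 6 in any of them, and was not tested. It is named because of its symbol and after its values were seen.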
